A study of Mus musculus with 7 samples.

Results

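Induced neural stem cell (iNSC) lines labelled by their reprogramming vectors were compared: the pOKSM line, with 1 library, and 2 mcBKSM clones, numbered 1 and 3, with 1 library each. These are 3 of the 7 mouse RNA-seq libraries analysed here. In the vector names, O is short for Oct4 (gene Pou5f1), B for Brn4 (Pou3f4), K for Klf4, S for Sox2 and M for Myc, where the prefix p is taken to mean polycistronic and mc monocistronic. By label, pOKSM and mcBKSM therefore differ in the vector format and in 1 factor at once, so the effect of the format and that of the factor cannot be told apart. Members of the comparison were genes for which both clones lay on the same side of pOKSM on the log2(FPKM + 1) scale and which reached 5 FPKM in the higher side, meaning pOKSM or the mean of the clones. FPKM counts fragments per kilobase, corrected for library size. Of 24354 genes in the table, 9051 reached 5 FPKM and 6142 of these met the rule.

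The pOKSM line and both clones were made from embryonic fibroblasts taken at E13.5, strain C57BL/6-Pou5f1 x 129X1/SvJ, genotype Oct4-CreER x Rosa26-loxSTOPlox-EYFP. The fibroblasts were infected with lentivirus or retrovirus and grown in neural stem cell medium, and the labels do not say which virus each line received. The Oct4-CreER and Rosa26 reporter alleles were thus shared by all 3 libraries. The other libraries, used to place the values, were pBKSM (an iNSC line of the same strain and genotype, labelled as a polycistronic vector with Brn4), DTA (an iNSC line of genotype Oct4-CreER x Rosa26-loxSTOPlox-DTA, strain given as Unknown), cNSC (control neural stem cells of E13.5 brain cortex, genotype OG2/ROSA26) and MEF (fibroblasts at E13.5, of the pOKSM strain and genotype). Each library held pooled RNA of 2 to 3 biological replicates, so no spread within a line can be seen. The 2 clones differ as clones do and are not repeats of 1 line. The pOKSM line carries no clone number, and its number of founding cells is not given in the sources used here.

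As background, a polycistronic vector places several coding sequences on 1 transcript, which couples their amounts in a cell, while monocistronic vectors deliver each factor separately, so that cells can take up different doses. Sox2, Klf4 and Myc with a POU factor can convert fibroblasts into cells that grow as neural stem cells. Such cells express Nes and Sox2, can form astrocytes, neurons and oligodendrocytes, and lose the collagen programme of the fibroblast.

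The neural label was checked against defining markers. Nes, an intermediate filament gene of neural progenitors, stood at 189 FPKM in pOKSM and at 145 and 132 FPKM in clones 1 and 3. Pax6, a transcription factor gene of cortical progenitors, stood at 7.94 FPKM in pOKSM and at 5.33 and 6.80 FPKM in the clones. Col1a1, the main fibroblast collagen gene, was at 0.158 FPKM in pOKSM and at 0.962 and 0.228 FPKM in the clones, where MEF had 440 FPKM. All 3 libraries thus carried the neural markers and nearly none of this collagen transcript. Other collagen genes were expressed. Over the 35 listed, levels summed to 158 FPKM in pOKSM, 145 and 151 FPKM in the clones and 1893 FPKM in MEF. Of the defining markers of other cell types, Ptprc and Aif1 (haematopoietic cells and microglia), Cdh5 (endothelium) and Cdh1 (epithelium) were listed at 0 in all 3, and Sox10 and Mbp (oligodendrocyte lineage) stayed under 0.5 FPKM. In the same lists, Cd68 (macrophages) stood at 7.43 FPKM in pOKSM and at 9.68 and 9.49 FPKM in the clones, and Egfl7 (endothelium) at 5.98 FPKM in pOKSM and at 6.15 and 6.89 FPKM in the clones, the 1 member of each list to reach 5 FPKM. Gfap, an astrocyte filament gene, was at 0.538 FPKM in pOKSM and at 0.0526 and 0 FPKM in the clones. Rbfox3, a neuronal splicing factor gene, was at 19.9 FPKM in pOKSM and at 29.7 and 26.0 FPKM in the clones, against 0.0692 FPKM in cNSC, so this neuronal marker was present in all 3 lines although their label is neural stem cell. Values of the further defining markers Pecam1, Epcam, Thy1, Tubb3, Aqp4 and Nanog are not given here. In these bulk values, fewer cells of a type and less RNA per cell cannot be told apart.

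The factor genes bore on the labels only in part. Pou5f1, the O factor, was at 0.202 FPKM in pOKSM and at 0.398 and 0.187 FPKM in clones 1 and 3. The level of 3 fragments on a 2 kb transcript was 0.131, 0.110 and 0.122 FPKM. Values in pOKSM and clone 3 were close to that level, and clone 1 lay further above it. Pou3f4, the B factor, was at 2.26 FPKM in pOKSM and listed at 0 in both clones, which is the reverse of what the letters name (log2 difference 1.71 ± 0.12, SE, adjusted p = 0.265, limma). Neither gene checks the labels, which are used here as names. The shared factors were lower in pOKSM. Sox2 was at 277 FPKM in pOKSM and at 342 and 390 FPKM in the clones (log2 difference -0.40), and Myc was at 339 FPKM in pOKSM and at 450 and 485 FPKM in the clones (-0.46 ± 0.10, SE, adjusted p = 0.523, limma). Klf4 was at 5.20 FPKM in pOKSM and at 16.6 and 5.91 FPKM in the clones, and this difference was smaller than the gap between the clones (1.35 on the log2 scale). Transcripts from a vector and from the gene's own locus cannot be told apart in these values.

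The strain and genotype of the lines were the same, but levels of Y-linked genes were not. Eif2s3y was listed at 0 in pOKSM and in both clones and stood at 31.2 FPKM in pBKSM. Ddx3y, an RNA helicase gene on the Y chromosome, was at 12.5 FPKM in pOKSM and at 28.3 and 16.2 FPKM in the clones, and Kdm5d, a histone demethylase gene also on the Y, at 3.52 FPKM in pOKSM and at 8.73 and 5.54 FPKM in the clones. Both were lowest in pOKSM of the 3 libraries. In MEF the Y-linked genes measured were listed at 0, and Xist was at most 0.182 FPKM in any library. Y-linked transcripts were thus detected in pOKSM and the clones and not in the MEF library. The strain label of cNSC names heterozygous female mice, and Eif2s3y stood at 48.2 FPKM there. The part of the source embryos in the differences below was not tested.

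The libraries were close over most of the transcriptome. The median log2 difference, pOKSM minus the clone mean, over the 9051 genes was under 0.01 in size, with quartiles at -0.13 and 0.14, and the median gap between the clones was 0.15. pOKSM was above both clones at 3094 genes (34.2%) and below both at 3048 (33.7%), and the remaining 2909 had clones on both sides or tied. At a difference of at least 1 on the log2 scale, which is 2-fold, 152 genes were higher in pOKSM (1.68% of 9051) and 38 were lower (0.420%), which makes 190 in all (2.10%). The difference exceeded the gap between the clones at 134 of the 152 and 33 of the 38. By the same fold, clones 1 and 3 differed from each other at 114 of 9024 genes (1.26%). Differences of at least 4-fold numbered 60 higher and 6 lower.

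**Figure D1:**
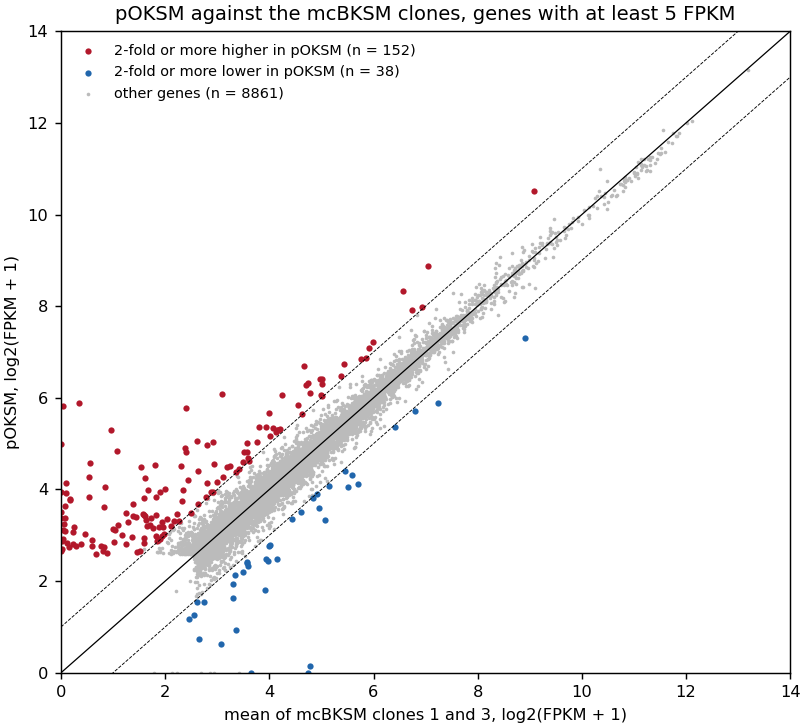
Level in pOKSM (vertical) against the mean of mcBKSM clones 1 and 3 (horizontal), both as log2(FPKM + 1), for the 9051 genes that reached 5 FPKM; the solid line is equality and the dashed lines are 2-fold. The 152 genes higher in pOKSM (red) include a group at the left edge with almost no transcript in the clones, and the 38 lower genes (blue) lie closer to the dashed line.

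Some of these genes were near silence on the lower side. Of the 152 higher genes, 34 stood at or under 1 FPKM in both clones and 5 were listed at 0 in both. Of the 38 lower genes, 6 stood at or under 1 FPKM in pOKSM and 2 were listed at 0 there. Small nucleolar and micro RNA genes, whose FPKM is unreliable because of their short length, made up 8 of the higher and 4 of the lower genes. The lower count depended on clone 3: set against clone 1 alone, 98 genes were 2-fold lower in pOKSM, and against clone 3 alone 43. Limma called 0 of 13042 genes (0% at an adjusted p under 0.05; smallest adjusted p 0.148), with 1119 at an unadjusted p under 0.05, 787 higher and 332 lower. That fit has 1 residual degree of freedom and takes the spread of the single pOKSM library from the 2 clones. The folds below are therefore given as measured values beside the clone gap.

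At the edge of the 2-fold threshold, Iffo1 and Pon2 lay just inside on the higher side (log2 difference 1.01 each) and Cpe and Orai1 just outside (0.99 each). On the lower side Tspo (-1.01) and Cyba (-1.02) lay just inside and Cebpd (-0.99) and Ccdc159 (-0.98) just outside. At the 5 FPKM limit, Rftn2 (5.05 FPKM) and Aard (5.14 FPKM) were kept, and Cdon and Chrm3 (4.96 FPKM each) were left out.

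Before single genes are described, pOKSM was set against the pBKSM library. A pair of classes was formed without the pOKSM values, after earlier results were seen. The first held 32 genes with at least 20 FPKM in pBKSM and at most 1 FPKM in both clones. In pOKSM these stood at a median of 21.8% of their pBKSM level (quartiles 13.2% and 25.4%), and 24 of the 32 lay between 10% and 40%. The same genes reached a median of 41.5% of the pBKSM level in DTA, with a wider spread (quartiles 7.07% and 83.0%), and 73.7% in cNSC (12.01% and 128%). The exceptions under 5% in pOKSM were Eif2s3y, Mir8104 and Tex13, listed at 0, and Chl1 and S100b.

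The second class held 30 genes with at least 20 FPKM in both clones and at most 1 FPKM in pBKSM. In pOKSM they stood at a median of 69.9% of the clone mean (quartiles 51.4% and 80.2%), against 4.34% in DTA and 6.85% in cNSC. In MEF the median was 52.3%, with a wider spread (quartiles 11.5% and 167%). Snora65 and Eif3j1 were the members under 5%, and Lxn, the gene of a carboxypeptidase inhibitor, was at 111%. pOKSM held most genes of both classes at a level between those of the clones and of pBKSM. The classes take opposite extremes of those lines, so a level between them largely follows from how the genes were picked. In the first class the medians of DTA and cNSC lay between as well. In the second class that of MEF did, so this place was not particular to pOKSM in either class. With limits of 10 and 0.5 FPKM in place of 20 and 1, the medians were 19.7% and 67.5% over 52 genes each. Whether 1 proportion of cells, or of RNA per cell, sets these levels was not tested.

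**Figure D2:**
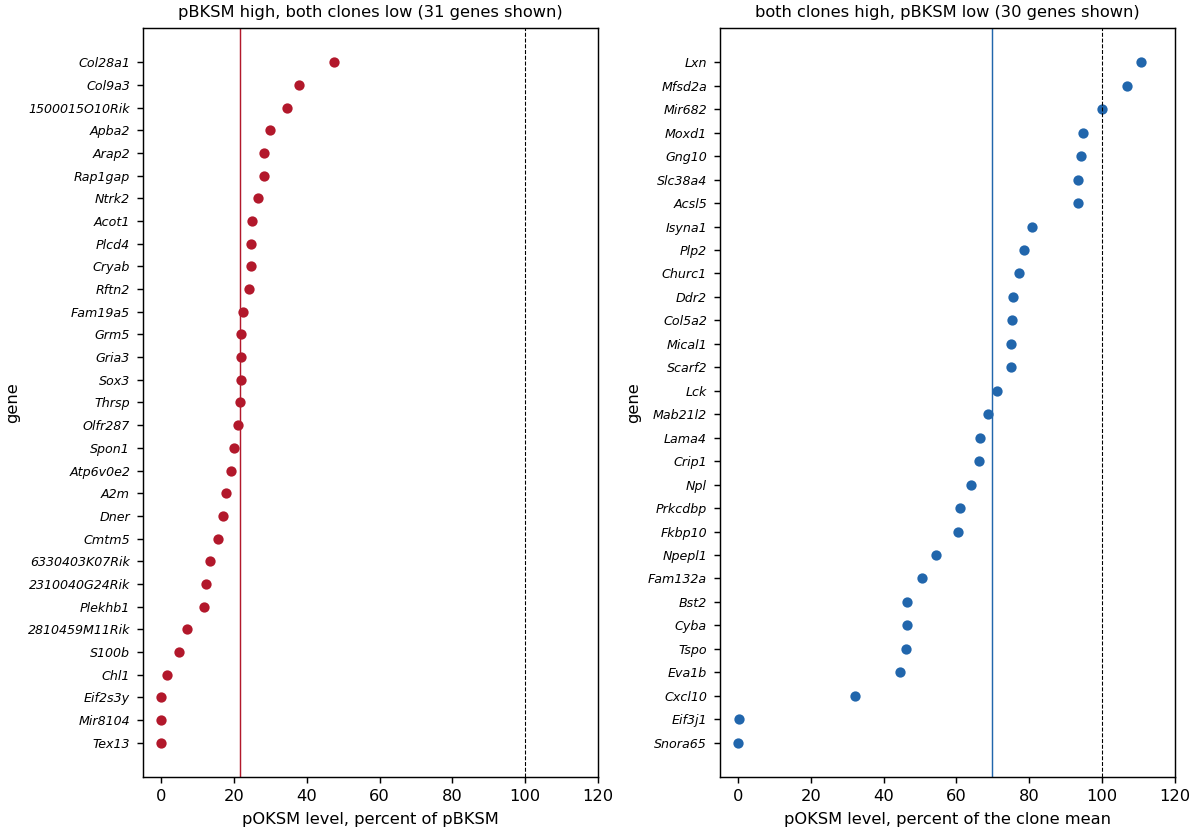
Level of pOKSM for genes silent in the clones and high in pBKSM, as percent of pBKSM (left, 31 of the 32 genes), and for genes high in the clones and silent in pBKSM, as percent of the clone mean (right, 30 genes); each point is 1 gene and the coloured line is the median (21.8% left, 69.9% right). Most points on the left lie between 10% and 40%, and on the right Snora65 and Eif3j1 lie near 0.

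The genes 2-fold apart were next set against the cNSC and MEF libraries, which the rule did not use. Genes with a 4-fold or larger difference between cNSC and MEF, and at least 5 FPKM in the higher of these, were sorted into cNSC-high and MEF-high. Of the 152 genes higher in pOKSM, 89 (58.6%) were cNSC-high and 7 (4.61%) MEF-high, beside 5.81% and 2.97% of all 9051 genes. Of the 38 genes lower in pOKSM, 5 (13.2%) were cNSC-high and 17 (44.7%) MEF-high. Of the 152, 64 reached 5 FPKM in clone 1 and 54 in clone 3, and 17 of the 38 reached it in pOKSM. Many of these genes thus passed the limit through their higher side only, so all 9051 genes are not a like baseline for these shares. The median log2 difference, pOKSM minus clones, was 0.23 over the 526 cNSC-high genes, -0.29 over the 269 MEF-high genes and close to 0 over the rest. The gap of clone 1 minus clone 3 for the same classes had medians of 0.04 and 0.07. pOKSM lay nearer to cNSC than the clone mean did at 129 of the 152 higher genes (84.9%) and 30 of the 38 lower genes (78.9%), beside 61.0% of all. It lay nearer to MEF at 40 of the 152 (26.3%) and 20 of the 38 (52.6%), beside 51.7% of all. At the lower genes the share nearer to MEF was thus close to that of all genes.

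**Figure D3:**
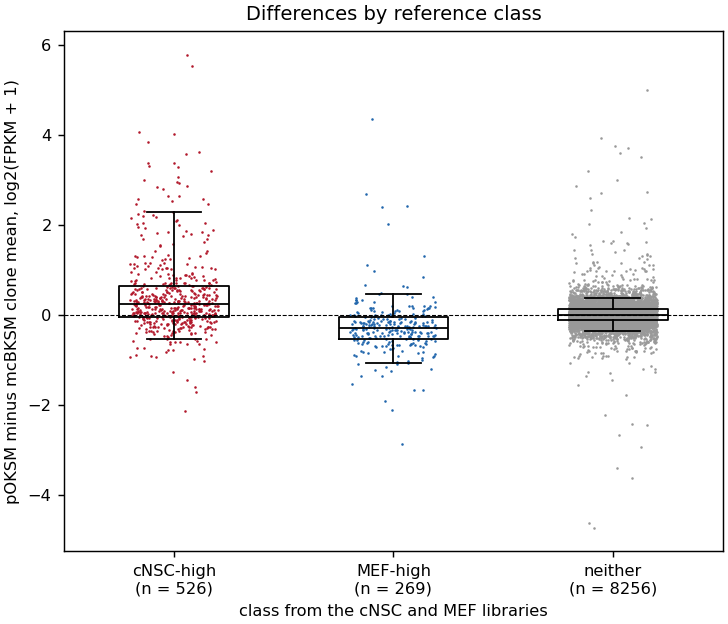
Difference pOKSM minus the mean of the clones on the log2(FPKM + 1) scale, for genes high in cNSC over MEF (526), high in MEF over cNSC (269) and neither (8256); points are genes, boxes span the quartiles with the median as a line, and whiskers reach the 5th and 95th percentiles. The cNSC-high box lies mostly above 0 (median 0.23) and the MEF-high box below 0 (median -0.29).

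The 152 higher genes had a median level of 14.3 FPKM in pOKSM and of 3.25 and 2.41 FPKM in clones 1 and 3. Their median was 35.6 FPKM in pBKSM, 27.7 in DTA and 24.9 in cNSC, and 0.825 FPKM in MEF. The 38 lower genes had a median of 4.49 FPKM in pOKSM and of 22.8 and 12.5 FPKM in the clones. Their median was 0.213 FPKM in pBKSM and 8.17 FPKM in MEF.

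Counts of list members below are out of those that reached 5 FPKM in the higher side, for example 32 of 37 neural stem cell genes, 36 of 36 proliferation genes, 3 of 32 potassium channel genes and 1 of 56 clustered protocadherin genes. Over all 9051 genes, 1.68% were 2-fold higher and 0.420% lower. Lists of pluripotency, skeletal muscle, epithelial and ependymal genes had no member that reached 5 FPKM. A gene can reach that limit through pOKSM alone or the clones alone, so the shares of short lists partly follow from the filter. Among the lists, neural stem cell genes had the most members on the higher side. Of 32 neural stem cell genes with at least 5 FPKM, 7 were 2-fold higher in pOKSM and 0 lower, and the median difference was 0.33 on the log2 scale, beside a median near 0 over all genes. In all, 22 of the 32 were above both clones and 5 below both, beside 34.2% and 33.7% of all genes. Sox3, a SOX factor gene of early neural progenitors on the X chromosome, was at 12.9 FPKM in pOKSM and at 0.177 and 0.0779 FPKM in the clones (log2 difference 3.62 ± 0.15, SE, adjusted p = 0.248, limma). It was thus close to the detection level in both clones and clearly present in pOKSM. Its levels in pBKSM and cNSC were 58.8 and 60.1 FPKM.

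Fabp7, the brain lipid-binding protein of radial glia, was at 1450 FPKM in pOKSM and at 642 and 459 FPKM in the clones (log2 difference 1.42, clone gap 0.48). Tnc, the matrix glycoprotein tenascin C, was at 40.2 FPKM in pOKSM and at 15.0 and 11.2 FPKM in the clones. Both clones lay well below pOKSM at each gene, although both genes were well expressed there. Rfx4, a transcription factor gene of the ventricular zone, completed the 7 members with Olig1, Olig2 and Slc1a3.

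Glial lineage genes followed in 2 lists. Of 9 oligodendrocyte lineage genes, 4 were 2-fold higher in pOKSM and 0 lower (median 0.77). Of these 4, Cmtm5 and Bcas1 reached 5 FPKM through pOKSM only, the side where they were higher. The count of 4 in 9 and the median therefore do not measure an excess over all genes. Olig1, a bHLH factor gene of the oligodendrocyte lineage and ventral progenitors, was at 323 FPKM in pOKSM and at 110 and 79.6 FPKM in the clones (log2 difference 1.78 ± 0.27, SE, adjusted p = 0.443, limma). Its neighbour and relative Olig2 was at 148 FPKM in pOKSM and at 65.1 and 59.5 FPKM in the clones, a difference of 1.23 against a clone gap of 0.13. Both stood lower in pOKSM than in pBKSM, at 31.1% and 34.9% of the pBKSM level. Cmtm5, a myelin-associated membrane protein gene, was at 8.54 FPKM in pOKSM and at 0.0935 and 0 FPKM in the clones. Bcas1, a gene of newly forming oligodendrocytes, was at 9.70 FPKM in pOKSM and at 2.98 and 1.36 FPKM in the clones. The lineage markers Mbp and Sox10, given above, stayed under 0.5 FPKM.

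Of 16 astrocyte genes, 3 were 2-fold higher in pOKSM and 1 was lower (median 0.20). Slc1a3, the glutamate transporter GLAST of radial glia and astrocytes, was at 65.4 FPKM in pOKSM and at 32.3 and 29.5 FPKM in the clones (log2 difference 1.06, clone gap 0.13). Mlc1, a membrane protein gene of astrocyte endfeet, was at 54.0 FPKM in pOKSM and at 8.51 and 1.95 FPKM in the clones, which themselves differed by 1.69 on the log2 scale. Sparcl1, a secreted matrix protein gene, was at 79.5 FPKM in pOKSM and at 55.5 and 11.5 FPKM in the clones, a difference smaller than the clone gap. Apoe, the lipid carrier that astrocytes secrete, ran the other way, at 15.6 FPKM in pOKSM and 56.5 and 35.0 FPKM in the clones (log2 difference -1.46, clone gap 0.68). Apoe was at 650 FPKM in cNSC and 11.4 FPKM in pBKSM, so at this gene the clones lay nearer to cNSC than pOKSM did.

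Among all genes, the largest difference was at Nnat (chr2:157560078-157562525, plus strand), an imprinted gene for the membrane proteolipid neuronatin, expressed from the paternal allele. It was at 55.9 FPKM in pOKSM and at 0.0674 and 0 FPKM in the clones, which is at or under the level of 3 fragments there (log2 difference 5.78 ± 0.14, SE, adjusted p = 0.241, limma). It was at 163 FPKM in cNSC, 8.71 FPKM in pBKSM and listed at 0 in DTA and MEF, so pOKSM exceeded pBKSM at this gene. Of 27 imprinted genes with at least 5 FPKM, 3 were 2-fold higher in pOKSM and 0 lower (median 0.06). The others were Peg3, a paternally expressed zinc finger gene (6.85 FPKM in pOKSM, 2.16 and 2.95 FPKM in the clones), and Cd81, a tetraspanin gene (252 FPKM in pOKSM, 133 and 110 FPKM in the clones). The Nnat promoter is shown because imprinted expression is tied to methylation of CpG sites, which are in capitals. The RefSeq window runs from 250 bases before to 50 after the start (GRCm38.p6, chr2:157559828-157560127, plus strand) and holds 17 CpG, beside a median of 7 over 27025 windows, 17 over the 97 windows of higher genes and 15 over the 26 of lower genes. The 27025 windows include genes under 5 FPKM and the 2-fold sets do not, so the median of 7 is not a like baseline for them.
Nnat promoter: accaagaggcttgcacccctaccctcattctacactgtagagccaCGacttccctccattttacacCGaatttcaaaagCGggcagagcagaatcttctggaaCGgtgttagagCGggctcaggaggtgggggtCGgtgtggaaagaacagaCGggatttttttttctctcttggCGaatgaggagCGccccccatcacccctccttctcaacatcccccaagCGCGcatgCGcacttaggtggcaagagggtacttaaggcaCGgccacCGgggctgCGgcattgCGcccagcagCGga
No methylation was measured, so nothing about its state in these lines follows from the sequence.

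Further genes led the higher side with almost no transcript in the clones. Apln, the peptide ligand of the apelin receptor, was at 38.5 FPKM in pOKSM and at 0.743 and 1.16 FPKM in the clones (log2 difference 4.35 ± 0.21, SE, adjusted p = 0.248, limma). Spon1, an extracellular matrix protein of the floor plate, was at 16.7 FPKM in pOKSM and at 0.134 and 0 FPKM in the clones. The difference exceeded the clone gap at both genes, which was a condition for naming them here. Apln was also high in MEF, at 49.3 FPKM, whereas Spon1 was listed at 0 there.

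Atp6v0e2, a subunit gene of the vacuolar proton pump, was at 14.2 FPKM in pOKSM and at 0.0807 and 0.0444 FPKM in the clones. Cryab, a small heat shock protein gene, was at 11.5 FPKM in pOKSM and at 0 and 0.105 FPKM in the clones. Col28a1, a collagen gene, was at 12.7 FPKM in pOKSM and at 0.132 and 0.127 FPKM in the clones. Clone values of these genes lay near the level of 3 fragments, so their log2 differences (3.84, 3.57 and 3.60) depend on the pseudocount and no fold is given. Fam19a5, a secreted neural peptide gene, was at 9.38 FPKM in pOKSM and listed at 0 in both clones, and Acot1, a fatty acyl thioesterase gene with close paralogs that make its value less certain, was at 18.2 FPKM in pOKSM and at 0.919 and 0.106 FPKM in the clones. Levels in pOKSM were 19.4% to 24.996% of pBKSM for Atp6v0e2, Cryab, Fam19a5 and Acot1, but 47.5% for Col28a1. Nnat, described above, exceeded its pBKSM level. These genes were picked by the size of their differences, and what sets their fractions of the pBKSM level was not tested.

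**Figure D4:**
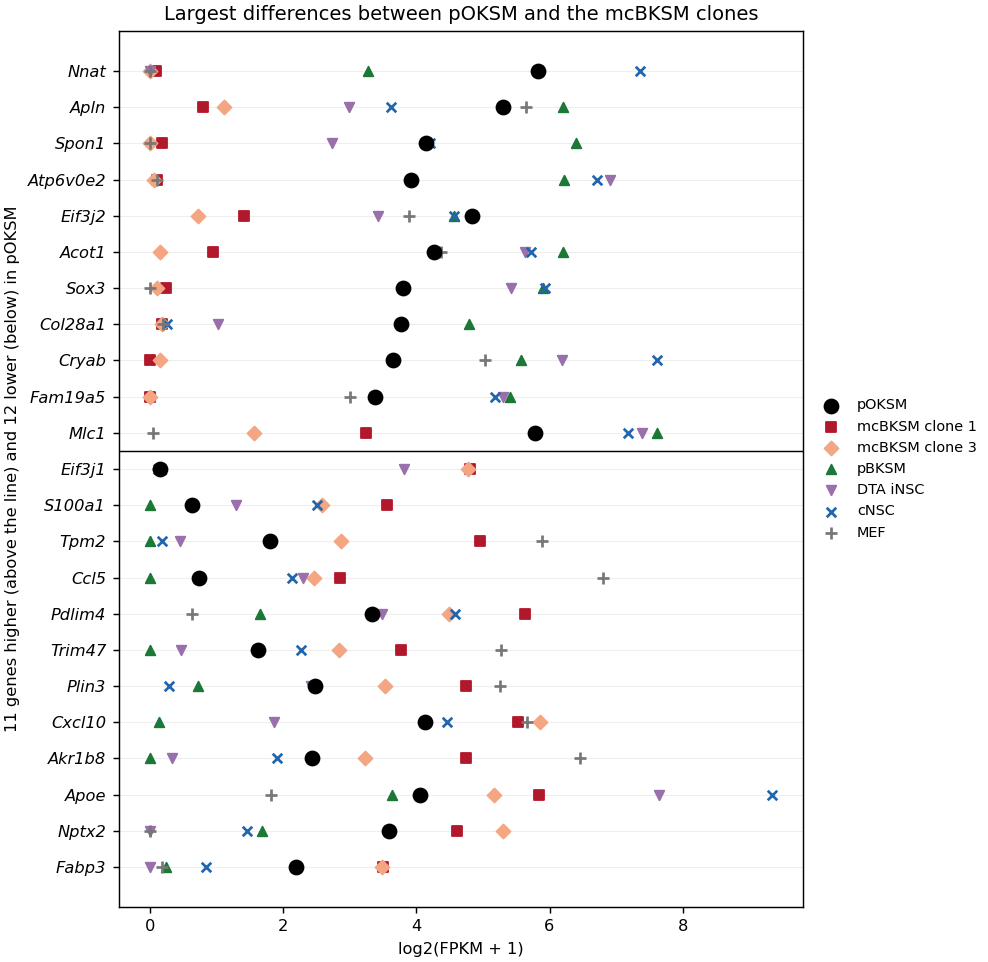
Level of genes with the largest differences, 11 higher and 12 lower in pOKSM, as log2(FPKM + 1), in every library; each symbol is 1 library, with pOKSM as black circles and the mcBKSM clones as squares and diamonds. By the way the genes were picked, pOKSM stands right of both clones above the line and left of them below it. Above the line pOKSM is mostly below pBKSM, and below the line the clones often differ from each other.

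A near-identical gene pair was divided differently between the lines. Eif3j1 (chr2:122028580-122053632, plus strand), a translation initiation factor subunit gene, was at 0.112 FPKM in pOKSM and at 26.9 and 26.3 FPKM in the clones (log2 difference -4.64 ± 0.11, SE, adjusted p = 0.241, limma). Its copy Eif3j2, on chromosome 18, was at 27.4 FPKM in pOKSM and at 1.66 and 0.654 FPKM in the clones. The sum of both was 27.6 FPKM in pOKSM and 28.6 and 27.0 FPKM in the clones, so the pair as a whole did not separate the lines. Because reads of the 2 copies can be assigned to either, each single value is uncertain.

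Most ion channel and receptor genes listed did not reach 5 FPKM. Of 32 potassium channel genes 3 did, and 2 of these were 2-fold higher, beside 1.68% of all genes: Kcnc1 was at 11.3 FPKM in pOKSM and at 1.17 and 0.452 FPKM in the clones, and Kcnd3 at 20.1 FPKM in pOKSM and at 6.38 and 4.23 FPKM in the clones. Of 33 glutamate and GABA receptor genes 5 reached 5 FPKM, and 2 of these were 2-fold higher. Gria3, an AMPA receptor subunit gene, was at 5.74 FPKM in pOKSM and at 0.120 and 0.103 FPKM in the clones, and Grm5, a metabotropic glutamate receptor gene, at 5.81 FPKM in pOKSM and at 0.308 and 0.152 FPKM in the clones. At all 4, both clones lay below pOKSM by more than the clones differed. Kcnc1, Gria3 and Grm5 reached 5 FPKM through pOKSM only, the side where they were higher. The counts out of 3 and 5 therefore do not measure an excess over all genes. Of 14 neuronal genes, 1 was 2-fold higher, Gap43, a growth cone gene, with a difference of 1.15 that equalled the clone gap, and 0 were 2-fold lower. In this list 1 gene was above both clones and 7 were below both (median -0.15).

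Counts for the developmental pathway lists are given beside the 1.68% of all genes that were 2-fold higher and the 0.420% lower. Wnt7b, Nkd1, Dner, Fgf1 and Ntn1 reached 5 FPKM through pOKSM only, and Sfrp4 through the clones only. The counts of these lists therefore do not measure an excess over all genes. Of 18 Wnt genes, 2 were 2-fold higher and 1 lower. Wnt7b, a Wnt ligand of the developing cortex, was at 7.71 FPKM in pOKSM and at 1.38 and 0.783 FPKM in the clones. Nkd1, a Wnt feedback inhibitor, was at 8.32 FPKM in pOKSM and at 1.70 and 0.677 FPKM in the clones, and Sfrp4, a secreted Wnt antagonist, at 1.40 FPKM in pOKSM and at 7.31 and 3.12 FPKM in the clones. A ligand and a feedback gene were thus higher and an antagonist lower, while the median of the list was 0.07.

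Of 18 Notch genes, 2 were 2-fold higher. Dner, a Notch-binding membrane protein gene, was at 5.69 FPKM in pOKSM and at 0.948 and 0.597 FPKM in the clones, and Lfng, a glycosyltransferase that modifies Notch, at 37.4 FPKM in pOKSM and at 20.2 and 13.4 FPKM in the clones. Of 20 FGF and EGF receptor pathway genes, Fgf1, a ligand, was higher (6.01 FPKM in pOKSM, 0.251 and 0.0987 FPKM in the clones), and Egr1, an immediate early target, lower (20.3 FPKM in pOKSM, 66.9 and 26.9 FPKM in the clones, a difference under the clone gap). Of 27 axon guidance genes, Ntn1, the floor plate ligand netrin 1, was the 1 member 2-fold higher, a share near that of all genes (14.8 FPKM in pOKSM, 7.28 and 2.11 FPKM in the clones). Hedgehog (10 genes) and TGF-beta and BMP genes (16) had none 2-fold apart.

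Of 22 matrix and protease genes, 4 were 2-fold higher in pOKSM and 0 were 2-fold lower, while 9 were above both clones and 7 below both (median 0.07). Beside Spon1 and Tnc, these were Ncan, a brain proteoglycan gene (17.6 FPKM in pOKSM, 6.00 and 3.15 FPKM in the clones), and Mmp15, a membrane metalloprotease gene (49.3 FPKM in pOKSM, 25.4 and 21.9 FPKM in the clones). Of 8 genes on the collagen list, Col9a3 was 2-fold higher (13.3 FPKM in pOKSM, 0.526 and 0.386 FPKM in the clones). Col28a1, described above, is not on that list and was also 2-fold higher. Igfbp7, a secreted IGF-binding protein gene, was at 5.96 FPKM in pOKSM and at 0.566 and 0.0778 FPKM in the clones. Of 15 fibroblast and mesenchyme genes, 1 was 2-fold higher, Fbln2, which encodes the matrix protein fibulin 2 (102 FPKM in pOKSM, 26.9 and 21.8 FPKM in the clones), and 0 were 2-fold lower. In this list 2 genes were above both clones and 9 below both (median -0.15).

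Cell cycle control differed at few genes. Of 22 p53 target genes, 3 were 2-fold higher and 0 lower (median 0.29). Cdkn1a, which encodes the CDK inhibitor p21, was at 65.3 FPKM in pOKSM and at 33.0 and 9.55 FPKM in the clones, so the clones differed by nearly as much (1.69) as pOKSM did from their mean (1.81). Eda2r, a TNF receptor family gene, was at 8.80 FPKM in pOKSM and at 1.80 and 1.11 FPKM in the clones, and Rprm, which encodes the cell cycle inhibitor reprimo, at 10.2 FPKM in pOKSM and at 3.07 and 0.401 FPKM in the clones. Ccnd1, the G1 cyclin D1 gene, was at 239 FPKM in pOKSM and at 118 and 95.9 FPKM in the clones. None of 36 proliferation genes was 2-fold apart in either direction, and their median was 0.10. None of 30 Myc target genes was either (median -0.03), although Myc itself was lower in pOKSM.

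On the lower side, chemokine and interferon genes had the most members. Of 39 interferon-stimulated genes listed, 9 reached 5 FPKM, and these 9 were below both clones, where 33.7% of all genes were. Their median was -0.31, and 2 of the 9 were 2-fold lower. Of 8 chemokine and cytokine genes, 3 were 2-fold lower and 0 higher (median -0.28). Of these 3, Ccl5 and Cxcl5 reached 5 FPKM through the clones only, the side where they were higher. The count of 3 in 8 therefore does not measure an excess over all genes. Cxcl10 (chr5:92346638-92348889, minus strand), an interferon-induced chemokine gene that is in both lists, was at 16.5 FPKM in pOKSM and at 45.3 and 57.1 FPKM in the clones (log2 difference -1.57 ± 0.22, SE, adjusted p = 0.413, limma). Bst2 (chr8:71534255-71537472, minus strand), which encodes the antiviral protein tetherin, was at 51.5 FPKM in pOKSM and at 117 and 104 FPKM in the clones (-1.09 ± 0.14, SE, adjusted p = 0.394, limma). Both clones lay above pOKSM by more than they differed from each other. For Cxcl10 this was a condition of being named among the largest differences.

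Both genes were nearly silent in pBKSM, at 0.0929 FPKM for Cxcl10 and 0.436 FPKM for Bst2, so pOKSM was between the lines at both. Ccl5, a T cell chemokine gene, was at 0.668 FPKM in pOKSM and at 6.19 and 4.52 FPKM in the clones. Cxcl5, a neutrophil chemokine gene, was at 2.84 FPKM in pOKSM and at 16.4 and 4.52 FPKM in the clones, with a difference under the clone gap. No MHC class I gene of 8 was 2-fold apart. Summed over the microglia and haematopoietic list, levels were 9.34 FPKM in pOKSM and 11.7 and 12.2 FPKM in the clones, with Ptprc and Aif1 listed at 0 in all 3 libraries. Cd68, a lysosomal gene of macrophages and the 1 member of that list to reach 5 FPKM, was at 7.43 FPKM in pOKSM and at 9.68 and 9.49 FPKM in the clones, and the part of such cells in the chemokine levels was not tested.

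The promoters of Cxcl10 and Bst2 are shown because both hold the core of the interferon-stimulated response element, searched as GAAANNGAAA on both strands (RefSeq windows of 250 bases before to 50 after the start, GRCm38.p6; matches in capitals). They lie at chr5:92348840-92349139 and chr8:71537423-71537722, both on the minus strand.
Cxcl10 promoter: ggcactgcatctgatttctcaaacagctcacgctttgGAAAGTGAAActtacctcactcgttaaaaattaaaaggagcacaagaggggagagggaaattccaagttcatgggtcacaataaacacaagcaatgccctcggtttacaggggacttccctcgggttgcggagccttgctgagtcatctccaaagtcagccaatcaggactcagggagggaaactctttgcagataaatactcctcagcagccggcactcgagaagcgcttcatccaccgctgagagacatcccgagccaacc
Bst2 promoter: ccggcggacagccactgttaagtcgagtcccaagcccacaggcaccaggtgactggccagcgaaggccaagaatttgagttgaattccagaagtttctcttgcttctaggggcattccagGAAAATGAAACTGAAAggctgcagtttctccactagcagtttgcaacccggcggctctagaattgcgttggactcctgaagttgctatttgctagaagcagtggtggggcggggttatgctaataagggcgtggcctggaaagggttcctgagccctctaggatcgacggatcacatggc
In the Bst2 window 2 overlapping matches make 1 run of capitals. A window was found for 26 of the 38 lower genes, and 4 of these held the motif (15.4%): Cxcl10, Bst2, Fbxo36 and Tgfbi. For the higher genes it was 2 of 97 (2.06%), for all genes with at least 5 FPKM 224 of 7354 (3.05%) and for all 27025 genes with a window 1079 (3.99%). The E-box CACGTG, the site that Myc and Max bind, was in 6 of 97 windows of higher genes (6.19%) and 1 of 26 of lower genes (3.85%), beside 12.7% of windows of genes with at least 5 FPKM. These matches describe letters in the windows and do not show binding.

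Other large differences on the lower side were at single genes of varied function. Tpm2, a tropomyosin gene, was at 2.48 FPKM in pOKSM and at 30.04 and 6.31 FPKM in the clones, a difference of -2.11 where the clones differed by 2.09. It was the 1 of 5 smooth muscle genes 2-fold lower, and the median of that list was -0.17. Pdlim4, an actin-associated PDZ and LIM protein gene, was at 9.11 FPKM in pOKSM and at 48.5 and 21.6 FPKM in the clones. S100a1, a calcium-binding protein gene, was at 0.541 FPKM in pOKSM and at 10.8 and 4.996 FPKM in the clones, and 8 of the 10 S100 and annexin genes were below both clones (median -0.38).

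Of the remaining lower genes named, Fabp3, the heart-type fatty acid-binding protein gene, was at 3.58 FPKM in pOKSM and at 10.4 and 10.2 FPKM in the clones (clone gap 0.01, log2 difference -1.30 ± 0.08, SE, adjusted p = 0.249, limma). Plin3, a lipid droplet coat gene, was at 4.56 FPKM in pOKSM and at 25.9 and 10.6 FPKM in the clones. Akr1b8, an aldo-keto reductase gene, was at 4.43 FPKM in pOKSM and at 25.8 and 8.34 FPKM in the clones. At both of these clone 1 was more than 2-fold above clone 3. Nptx2, a neuronal pentraxin gene, was at 11.1 FPKM in pOKSM and at 23.5 and 38.4 FPKM in the clones, with clone 3 the higher one, and Trim47, a ubiquitin ligase family gene, at 2.08 FPKM in pOKSM and at 12.6 and 6.17 FPKM in the clones.

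**Figure D5:**
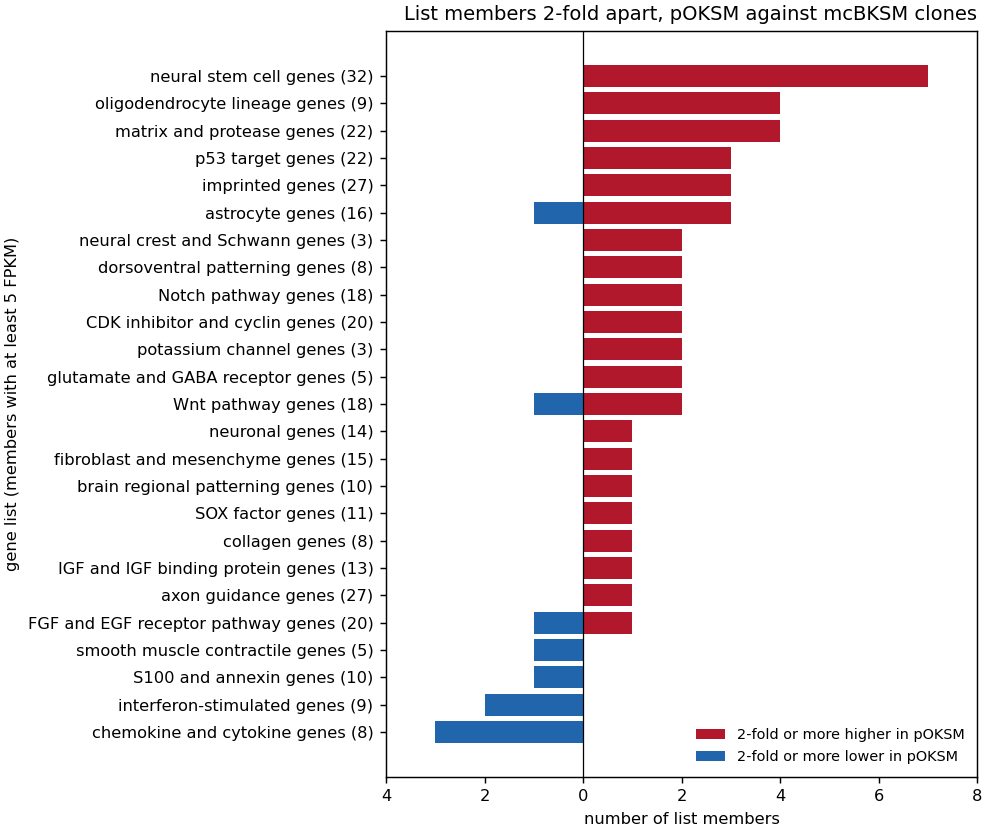
Number of members of each gene list that were 2-fold or more higher (red, right) or lower (blue, left) in pOKSM than in the mcBKSM clones; the number in brackets counts members with at least 5 FPKM, and lists with no such gene are left out. Neural stem cell genes reach 7 of 32 on the higher side, and chemokine and cytokine genes 3 of 8 on the lower side. Of these chemokine genes, Ccl5 and Cxcl5 reached 5 FPKM through the clones only.

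Of the positional lists, the Hox genes had no member at this fold. None of 11 Hox genes with at least 5 FPKM was 2-fold apart. Hoxd8 was at 10.2 FPKM in pOKSM and at 12.02 and 15.98 FPKM in the clones, and Hoxb4 at 6.54 FPKM in pOKSM and at 6.80 and 10.1 FPKM in the clones, while both were listed at 0 in pBKSM and cNSC. In DTA they stood at 13.8 and 4.22 FPKM. En2, a midbrain and hindbrain factor gene, was at 6.54 FPKM in pOKSM and at 1.37 and 4.799 FPKM in the clones, 2-fold higher (log2 difference 1.02) but within the clone gap, and was 1 of 10 brain regional patterning genes so. Of 8 dorsoventral patterning genes, 2 were 2-fold higher, Olig1 and Olig2, described above. Cholesterol synthesis (24 genes), glycolysis (25), Polycomb (22), DNA methylation (10) and housekeeping genes (15) had no member 2-fold apart.

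By chromosome, the X stood out by its median, leaving aside the Y with 2 genes. The median difference of the 261 X-linked genes with at least 5 FPKM was 0.24 on the log2 scale, with 0.26 against clone 1 and 0.21 against clone 3. Of these 261, 195 were above both clones and 24 below both. The X held 10 of the 152 higher genes and none of the lower, which is 3.83% of its genes, beside 2.10% of all genes 2-fold apart. Chromosomes 6 (4.34%) and 15 (3.91%) had larger shares 2-fold apart, and other chromosomes also held no lower gene. Set against the mean of pBKSM, DTA, cNSC and MEF, X-linked genes had a median of -0.38 in pOKSM and of -0.67 and -0.66 in the clones, so all 3 libraries lay below that mean, and pOKSM less so than the clones. Chromosome 6 had a median of 0.17, with 0.25 against clone 1 and 0.10 against clone 3. Chromosome 9 had 0.13, but clone 1 minus clone 3 was -0.31 there, and pOKSM was at 0.30 against clone 1 and -0.02 against clone 3. On chromosome 15 clone 1 minus clone 3 was 0.34. What sets these shifts was not tested.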

How the data were processed

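RNA-seq values were deposited as FPKM per gene symbol, 1 column for each of 7 libraries. The submitters' processing notes name Cufflinks 2.2.1 and Cuffnorm, STAR 2.5.2b, the build mm10 and R 3.3.2; no settings are stated there. The FPKM values that the authors deposited correct for transcript length and library size, so total RNA per cell cannot be seen. The members, the gene lists (48, with 1230 distinct genes) and the rules were chosen with earlier results of these data known.

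Values were used as log2(FPKM + 1), which understates changes of low genes. Genes with at least 1 FPKM in 1 or more libraries were tested with limma 3.58.1 (trend option, in R 4.3.3), p-values were adjusted by Benjamini-Hochberg, and the 6 label groups left 1 residual degree of freedom, from the clones. P-values therefore measure the spread between these clones and assume that pOKSM varies like them.

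The table holds no counts, so depth was read from the steps between low values of genes with 1 annotated transcript, as 12.7 for pOKSM, 15.1 for clone 1 and 13.7 for clone 3, in units of 1e6 fragments. These are approximate, since 26.3%, 21.4% and 21.2% of the low values used fell on a step. At these depths 5 FPKM on 2 kb is about 115, 136 and 123 fragments, and for pOKSM the 95% Poisson interval runs from -17.4% to 20.0%, for counting error only.

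Named genes were the factor and sex-linked genes, up to 4 members of each list, and the 12 largest differences each way that exceeded the clone gap, skipping Gm, Mir, Rik, snoRNA and ribosomal protein names. Of the largest differences, 1 is not reported here, and list members with no 2-fold difference are mostly given as counts. Not under this rule, and chosen after their values were seen, were the cell type markers, Rfx4, the class exceptions, the genes at the thresholds, and Fbxo36 and Tgfbi. Positions and promoters came from RefSeq (GRCm38.p6, the build of mm10), where 23149 symbols matched. Alternatives changed the pseudocount, filters, scaling, fold, model and clones.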

Additional observations from a re-analysis of the deposited data

How the results depend on the processing

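Limma called 0 genes with the settings described, and also after quantile scaling, median-ratio scaling or without the mean trend. It called 7 genes with a pseudocount of 0.1, 4 with a filter of 5 FPKM, 10 with pOKSM and the clones fitted alone, and 586 with no filter, of which 538 were listed at 0 in both clones and 513 were under 1 FPKM in every library. The count 2-fold apart was 190. It was 345 (274 higher, 71 lower) at 1 FPKM, 77 (60 and 17) at 20 FPKM, and 66 (60 and 6) at 4-fold. With a pseudocount of 0.1, 60 genes were lower, and 21 were when each clone had to be 2-fold from pOKSM. Leaving out a clone gave 205 to 255 genes, 157 to 162 higher and 43 to 98 lower; the 98 came without clone 3. The cNSC-high share of higher genes was 44.5% at 1 FPKM, and that of lower genes 7.04% at 1 FPKM and 29.4% at 20 FPKM. Without clone 1, H2-Q4 (-0.52, against 1.19 without clone 3) and Ldhb (-0.10, against 1.01 without clone 3) changed direction. The cause of these shifts was not tested. Over the alternatives, 488 other values of named genes kept their direction, and 69 counts of list members moved by over 1.5 times while 603 did not. Limma could not be fitted without a clone, since no residual degree of freedom remains. No paired analysis was possible because mcBKSM is the only group with more than 1 library and its clone numbers pair nothing in pOKSM. Depth limits statements on genes near 0.1 FPKM.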
